A study of Saccharomyces cerevisiae with 30 samples.

Results

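The Yap6 library is a list of Ty5 transposon insertions collected with the transcription factor Yap6, 1 of 28 factors studied in the same way in the yeast Saccharomyces cerevisiae. Its members are all lines of the deposited Yap6 insertion list, 11796 insertions of the 401017 listed for the 28 factors, and they were set against the 389221 insertions of the 27 other factors pooled. Per the design text the strain was Σ1278b, which grows as filaments when nitrogen is scarce, and the title names pseudohyphal growth. All 28 libraries share the same labels apart from the factor: low ammonium synthetic medium, Ty5 induced in 2% galactose, DNA taken from all colonies that were His+ and resistant to FOA, and digestion in 3 aliquots, each with a different enzyme. Each factor has 1 library, so no value has a spread between replicates. Every test below compares libraries and covers counting error only, with each line taken as a separate insertion unless stated. The 2 RNA libraries of the series, 1 from rich and 1 from nitrogen-starved medium, are used as background on the genes beside the insertions. No library without a factor is used here as a control, so the background is the pool of the other factors.

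Yap6 is a basic leucine zipper factor of the yeast Yap family, whose members bind similar short DNA sites and are known for responses to oxidants, metals, drugs and salt. Its closest relative is Cin5 (Yap4), and both genes are linked to salt tolerance. Yap6 is also among the factors reported to bring the Tup1-Cyc8 corepressor to promoters. Calling cards work by joining a factor to part of Sir4, a protein that guides Ty5 integration, and insertions then collect near the DNA the joined factor occupies. The identity of the fused factor cannot be read from an insertion list, and the Yap6 label was taken as given.

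The Yap6 library was of middle size and spread widely over the genome. It ranked 15th of 28 in insertions, between 2836 for Rtg1 and 41619 for Phd1. Its lines fell on 11106 distinct positions and carried 1608081 reads, with a median of 15 reads per insertion and 20.1% of the lines at 1 read. Upstream windows, defined as the 1200 bp before a start codon, held 80.04% of its insertions (95% exact binomial interval 79.3 to 80.8%), and the 27 other libraries ranged from 56.1 to 93.5% with a median of 82.5%. Gene bodies held 31.7% of its insertions, which overlaps with the upstream share because windows reach into neighbouring genes. The Yap6 insertions peaked 100 to 200 bp before the start codon. This 100 bp step held 15.95% of its upstream insertions, against 4.87 to 15.78% in the other libraries with a median of 13.53%. The median of the others was highest in this step as well, and the Yap6 share is given without an interval.

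No promoter held a large part of the Yap6 library. The fullest upstream window, shared by DSE1 and RSP5, held 28 insertions, 0.237% of the library. In the other 27 libraries the fullest window held 0.2002 to 10.5%, with a median of 3.92%. Of the 6402 genes tested, 1962 (30.6%) had no Yap6 insertion in the window, the median gene had 1, and 221 genes had 10 or more. The authors' deposited table gives a p-value per gene and factor, and a gene is said to be called by a factor where that value is at or under 0.001. Windows called by any of the 28 factors held 22.1% of the Yap6 insertions (interval 21.4 to 22.9%), and 20.8 to 72.8% of the insertions of the others, with a median of 38.4%.

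**Figure D1:**
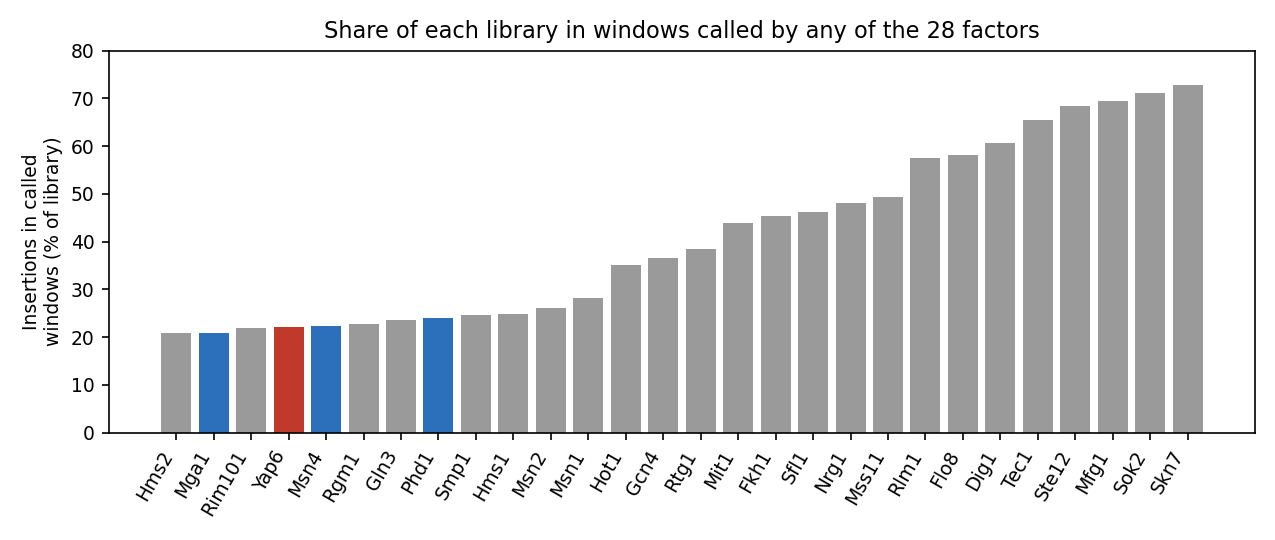
Share of each library's insertions (percent, y axis) that lie in upstream windows called by any of the 28 factors in the authors' deposited table; each bar is 1 library, Yap6 in red and its 3 most similar libraries in blue. Yap6 stands at 22.1%, the fourth lowest, and Skn7 is the highest at 72.8%.

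The ratios to the pool depended on which totals were used. Rates per library divide by all its insertions, those in called windows included. Outside the called windows lay 9185 of the 11796 Yap6 insertions and 216359 of the 389221 in the pool. Whether this difference accounts for the ratios below was not tested. Over the 5834 genes with 10 or more insertions in all libraries, the median ratio was 1.27 (log2 0.34). When totals were counted outside the called windows alone, the median log2 ratio was -0.14, and when the pool was limited to the 3 libraries most like Yap6 it was -0.18. Those libraries are Phd1, Mga1 and Msn4, with Spearman correlations of 0.573, 0.544 and 0.501 with Yap6 over the insertions per window of 6402 genes, ahead of Nrg1 at 0.487. The correlation is a description across genes, and the libraries share the genome and the fullness of its windows while differing in depth. These libraries were chosen for likeness to Yap6 over the same counts that are tested against them below. They hold 41619, 27254 and 14352 insertions, fewer than the whole pool, so fewer genes can pass for that reason too.

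Against the pool, 102 genes had more Yap6 insertions (1.59% of those tested) and 89 had fewer (1.39%), by Fisher's exact test, two-sided, at a Benjamini-Hochberg adjusted p under 0.05. The genes with more formed 77 loci, since neighbouring genes share windows, and those with fewer formed 60 loci. The excesses were small in number of insertions: the 102 genes held 3 to 25 Yap6 insertions each, with a median of 7.5, and their ratios to the pool ran from 2.47 to 98.99 with a median of 6.85. Of these genes, 73 had their highest rate of all 28 libraries in Yap6, which was the case for 310 of all tested genes (4.84%). The 102 were chosen for a high Yap6 rate against the same libraries, so these counts are not a like comparison. With totals outside called windows, 38 genes had more (0.594%), all among the 102, and 116 had fewer (1.81%), including all of the 89.

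**Figure D2:**
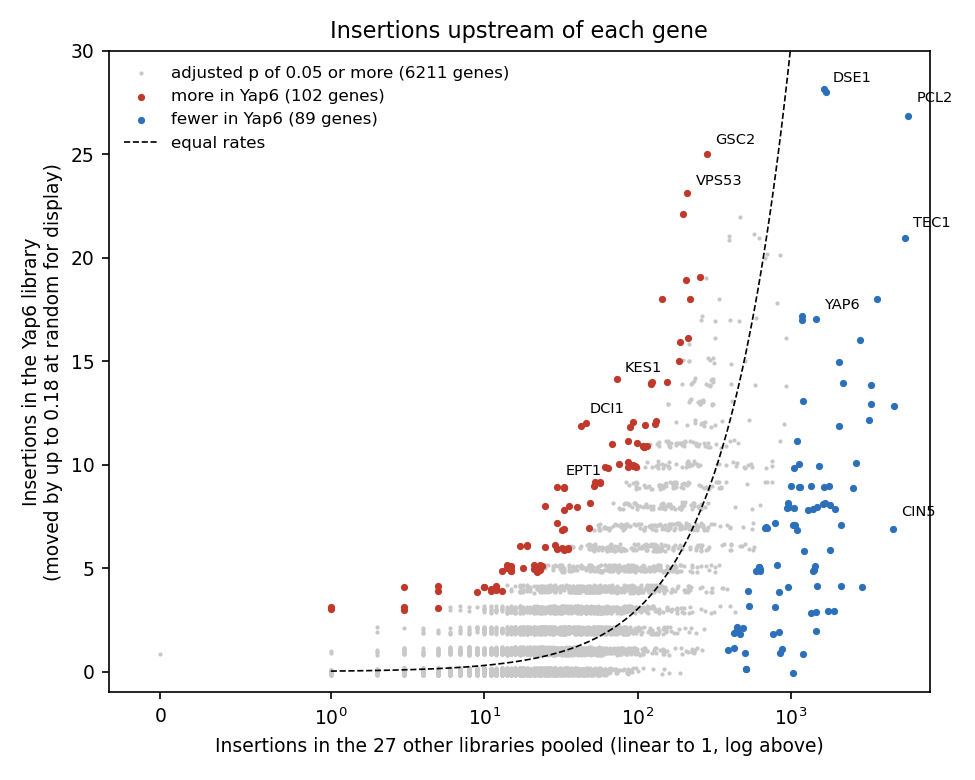
Insertions in each gene's 1200 bp upstream window, in the 27 other libraries pooled (x axis, log above 1) and in Yap6 (y axis, moved by up to 0.18 for display); each point is 1 gene, the dashed line marks equal rates. The 102 genes with more Yap6 insertions hold between 3 and 25, and the 89 with fewer lie at the right, where the pool holds the most insertions.

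The count of genes with more Yap6 insertions depended on how close lines were counted. In many windows a read-rich line was accompanied by lines of 1 to a few reads at the same position or within 5 bp. Over the whole Yap6 library, 15.3% of the lines lay within 5 bp of a line with at least 10 times their reads, and the other libraries ranged from 8.96 to 37.6% with a median of 16.0%. In the windows of the 102 genes the share was 30.5% (196 of 642 lines), in those of the 89 genes with fewer it was 19.6% (101 of 514), and in all tested windows 15.6%. With such lines left out of every library, 6 genes had more Yap6 insertions (0.0937%) and 59 had fewer (0.922%). The 6 genes were VPS53, RNR2, EAT1, KES1, RPA135 and YFL041W-A, the last of which, like RPA135 (a subunit of RNA polymerase I), is outside the rule for named genes. With lines within 5 bp of each other merged to 1 insertion, no gene had more (0%) by the same test and 5 had fewer (0.0781%). At an unadjusted p under 0.05 the merged counts gave 214 genes with more and 72 with fewer, of 6402 tested. When every line was counted the numbers were 725 and 132, of the same 6402. Unadjusted counts include genes that pass without any difference between libraries. All 102 genes kept a ratio above 1 after merging, with a median of 3.42. They were chosen for high ratios from the same lines, so this is no separate check of the excess. Whether such lines are separate insertions was not tested. The window mattered too: of the 61 named genes that passed, 29 did not pass with a window of 600 bp, among them KES1, LAS17, VPS53, RNR2, GSC2 and SDH6. With the window ended at the nearest gene 25 did not pass, among them VPS53, RNR2, SDH6, MBR1, EPL1, CIN5, TUP1, HOG1 and FRE1.

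**Figure D3:**
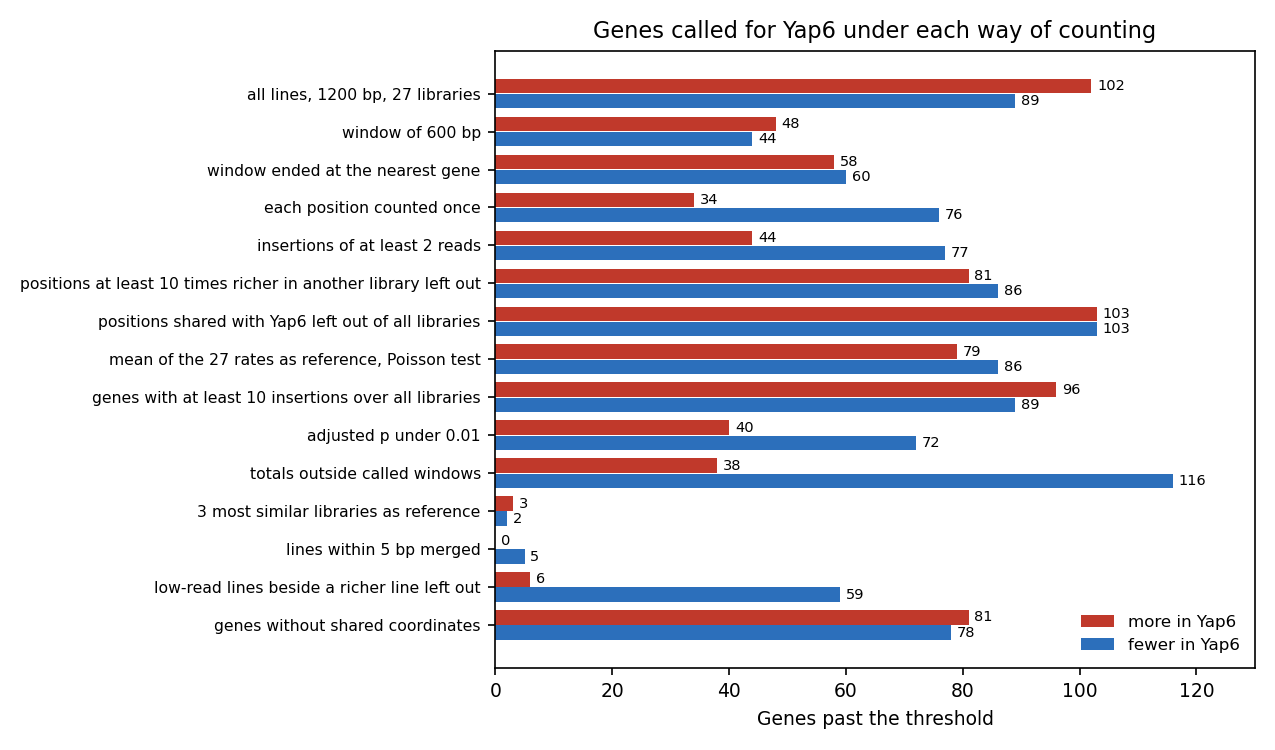
Number of genes (x axis) with more (red) or fewer (blue) Yap6 insertions past the threshold under each way of counting (y axis). The first pair of bars is the comparison with the pool, 102 and 89; the red bar falls to 6 without low-read lines beside a richer line and to 0 after merging.

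The smallest p-value among the excesses was at DCI1. This gene (chromosome 15, 667190 to 668005, minus strand) encodes a dienoyl-CoA isomerase linked to fatty acid breakdown, and it shares its upstream region with LAS17, the yeast WASP homologue that promotes actin assembly. The window of DCI1 held 12 Yap6 insertions, 10.2 per 10000, while the other libraries ranged from 0 to 2.79 with a median of 1.06. The Yap6 value lies above all 27 others. The ratio to the pool was 9.21 (95% exact interval 4.42 to 17.8), with an adjusted p of 7.8e-06 by Fisher's exact test. Against the 3 most similar libraries, where DCI1 held 9 insertions in Phd1, 4 in Mga1 and 4 in Msn4, the ratio was 4.98 (interval 2.17 to 11.1). The 12 lines lie on 10 positions between 133 and 590 bp before the start codon, and 5 of them stand beside a richer line. They merge to 6 insertions, with the richest lines at 146 bp (609 reads) and 588 bp (503 reads). Without the lines beside a richer one, the adjusted p by Fisher's exact test was 0.053.

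KES1 (chromosome 16, 253544 to 254848, minus strand), which encodes an oxysterol-binding protein of the Golgi, shares its region with POC4, a proteasome assembly factor. Its window held 14 insertions, 11.9 per 10000, against 0 to 8.83 elsewhere with a median of 1.29 and the highest value in Hms2. Yap6 was again the highest of 28, with a ratio of 6.33 to the pool (interval 3.30 to 11.3, adjusted p 3.2e-05 by Fisher's exact test). KES1 was the only gene among the 102 that also passed against Phd1, Mga1 and Msn4, where it held 7, 5 and 2 insertions and the ratio was 7.06 (interval 3.12 to 16.0). KES1 and these libraries were picked from the same counts, so this is no separate check. KES1 passed without low-read lines as well, at a ratio of 4.58 and an adjusted p of 0.034 by Fisher's exact test, but not after merging, at 3.98 and 0.27. Its 4 richest lines, with 701, 483, 220 and 190 reads, lie 896, 382, 579 and 480 bp before the start codon.

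EPT1, which makes phosphatidylethanolamine from diacylglycerol, held 9 insertions, 7.63 per 10000, against 0 to 4.63 in the other libraries with a median of 0.526. The ratio was 9.90 (interval 4.13 to 21.4, adjusted p 1.6e-04 by Fisher's exact test). All 9 lines lie between 83 and 140 bp before the start codon, none at a position found in another library, and 6 of them stand beside a richer line. They merge to 3 insertions, and the ratio is then 3.15 and no longer passes. Among the other named genes, LEM3, which encodes a subunit of a phospholipid flippase, held 4 insertions against 11 in the pool, with an adjusted p of 0.034 that is 0.051 without Mfg1 by Fisher's exact test.

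**Figure D4:**
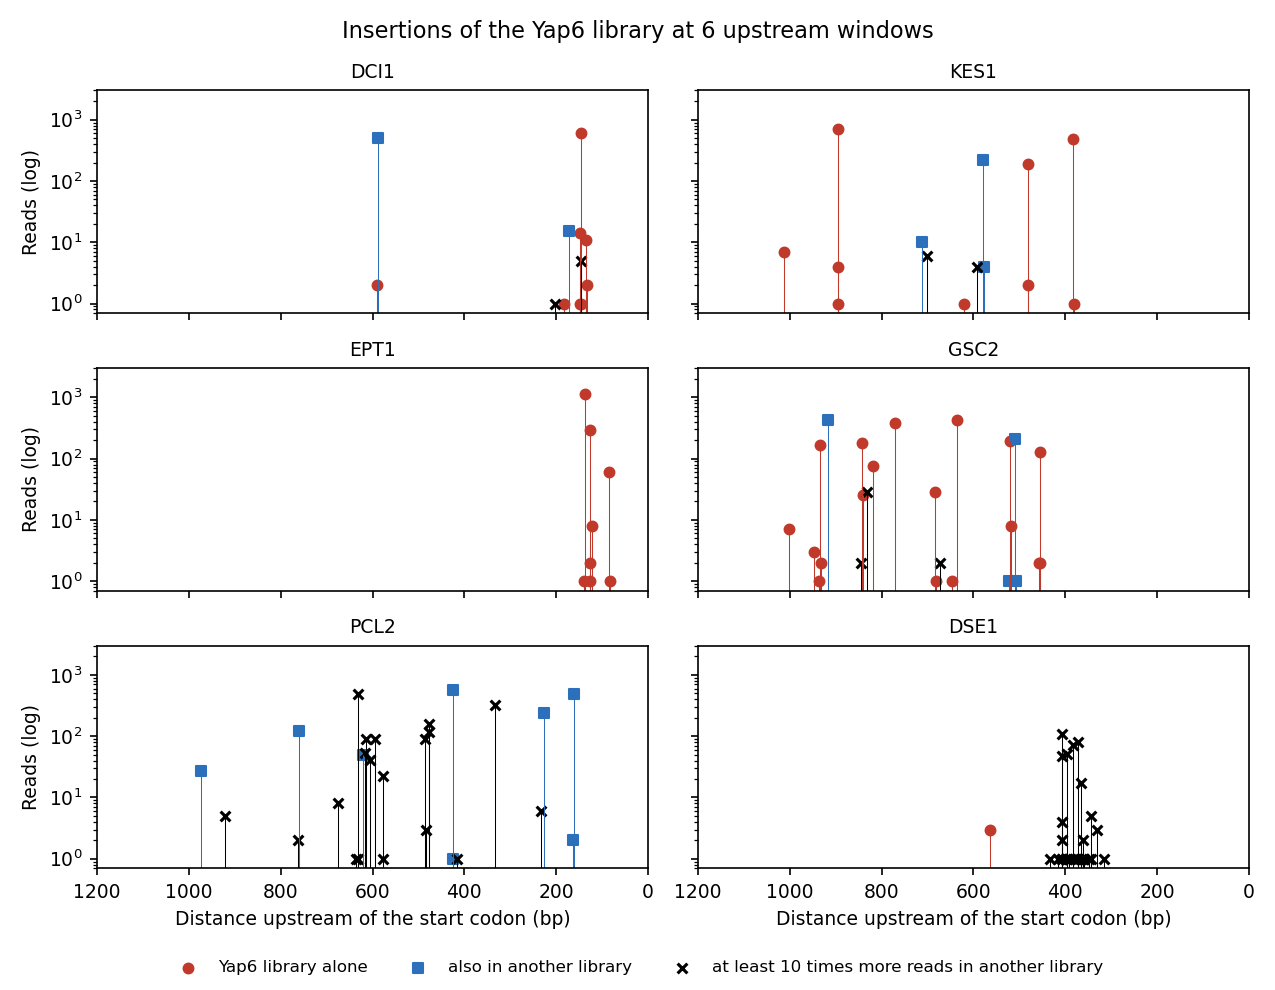
Distance upstream of the start codon (x axis, bp) and reads (y axis, log) of each Yap6 insertion at 6 windows; red circles are positions of the Yap6 library alone, blue squares are shared with another library, and crosses have at least 10 times more reads in another library. EPT1 has 9 lines within 83 to 140 bp, and 17 of the 18 positions at DSE1 are crosses.

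GSC2, VPS53 and RNR2 held the most insertions among the named genes with an excess. GSC2 encodes a stress-induced subunit of the glucan synthase that builds the cell wall. Its window held 25 insertions, the most of any gene with an excess, at 21.2 per 10000 against 1.95 to 17.6 elsewhere. The ratio to the pool was 2.93 (interval 1.86 to 4.41, adjusted p 5.5e-04 by Fisher's exact test), and it was 1.64 after merging. VPS53, a subunit of the GARP tethering complex, and RNR2, the small subunit of ribonucleotide reductase, share most of their windows. VPS53 held 23 insertions and RNR2 22, at 19.5 and 18.7 per 10000. The highest other libraries reached 12.2 at VPS53 and 11.6 at RNR2. Both passed without low-read lines, at ratios of 2.88 and 2.95, with adjusted p of 0.025 and 0.028 by Fisher's exact test. The RNR2 insertions lie 489 to 1188 bp from its start codon, beyond a neighbouring gene, and none remains when the window is ended there. SDH6, an assembly factor of succinate dehydrogenase, held 11 insertions on 9 positions, which merge to 5. EAT1, named for ethanol acetyltransferase, held 8 insertions, 7 of which also lie in the window of the uncharacterised YGR016W. The median of the other libraries at EAT1 was 0, and its ratio of 10.6 (interval 4.12 to 24.1) was 7.83 without low-read lines and 6.87 after merging, with adjusted p of 0.031 and 0.245 by Fisher's exact test. SOH1, a subunit of Mediator, and MET13, a methylenetetrahydrofolate reductase of methionine synthesis, share a region with 18 and 19 insertions. Yap6 ranked second at both, below Hot1 at 15.5 per 10000 for SOH1 and Rtg1 at 17.6 for MET13. The MET13 ratio of 3.01 was 2.15 with totals outside called windows, with an adjusted p of 0.11 by Fisher's exact test.

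Among 138 ribosomal protein genes tested, the largest of the 15 lists, 5 had more Yap6 insertions (3.62%, beside 1.59% of all tested genes) and 2 had fewer (1.45%, beside 1.39%). With totals outside called windows 3 had more and 3 had fewer. The median ratio of the list was 1.44, beside 1.18 over all 6402 tested genes. With the same totals these medians were 1.02 and 0.841, and against the 3 most similar libraries 0.941 and 0.830. RPS26A held 9 insertions, RPS2 and RPL9A 8 each, and RPS13 and RPL40A 6 each. RPS2 stood at 6.78 per 10000 against 0 to 4.63 elsewhere, a ratio of 7.999 to the pool (interval 3.19 to 17.7, adjusted p 1.8e-03 by Fisher's exact test). The insertions counted for RPS26A lie 541 to 831 bp before its start codon and 165 to 455 bp before that of YGL188C-A, so that RPS26A has none when its window is ended at the nearest gene. The 2 with fewer, RPL18B and RPS3, held 2 and 7 insertions where the pool held 444 and 1061, and RPL18B did not pass without Tec1 (adjusted p 0.080 by Fisher's exact test). None of the 5 passed after low-read lines were left out or lines were merged.

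Some excesses rest on very few insertions where the pool was nearly empty. RPT2, an ATPase of the proteasome cap, held 4 insertions against 3 in all 27 other libraries, a ratio of 44.0 with an interval of 7.44 to 300.3. Its 4 lines merge to 2 insertions, at 154 to 156 bp with 966 reads in the richest line and at 397 bp with 463 reads. RRN5, a factor of RNA polymerase I transcription that shares its listed coordinates with YLR140W, held 3 lines against 1, and these merge to 1 insertion. YPL035C held 4 against 5, SCD5 3 against 3, PRP3 (a splicing factor) 4 against 10 and RBH1 5 against 14. In each of these genes Yap6 was the highest of 28 libraries, and the width of the intervals shows how little the counts fix the ratio.

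Genes with fewer Yap6 insertions had full windows in the pool. All 89 were called by another factor in the authors' deposited table, as were 7 of the 102 with more (6.86%) and 713 of all 6402 tested genes (11.1%). The deposited p-values and the pooled counts come from the same libraries, so the 2 are not independent. CIN5, the gene of the closest relative of Yap6, held 7 Yap6 insertions against 4606 in the pool. Its rate was 5.93 per 10000, against 1.44 to 710.2 elsewhere, with a median of 9.75 and the highest value in Flo8. The ratio was 0.050 (interval 0.020 to 0.103). Against Phd1, Mga1 and Msn4, with 38, 14 and 8 insertions, it was 0.823 (interval 0.317 to 1.80). TEC1, which encodes a factor of the filamentation pathway, held 21 against 5499, and SVS1, a wall protein gene, 13 against 4671. At both the highest rate was in Ste12, and the Yap6 rates of 17.8 and 11.0 per 10000 were within the range of the other libraries, near their medians of 24.3 and 12.8. RPI1, a putative regulator linked to Ras signalling and the cell wall, held 4 against 2904, and the Yap6 rate of 3.39 per 10000 ranked 27th of 28. The other libraries ranged from 2.88 to 611.2 there, with a median of 8.83 and the highest rate in Sok2. RPI1 was the 1 named gene whose deficit passed under all 14 alternatives other than leaving out a library, with ratios of at most 0.191. Against the 3 most similar libraries RPI1 had a ratio of 0.098 (interval 0.027 to 0.255). There Phd1 alone held 259 insertions (62.2 per 10000), Mga1 23 (8.44) and Msn4 5 (3.48, near the Yap6 rate). That comparison gave 2 genes with fewer (0.0316%), RPI1 and its neighbour RHO3, and 3 with more (0.0475%), KES1, DSE1 and RSP5. At an unadjusted p under 0.05 it gave 300 genes with more and 42 with fewer, of 6321 tested, without adjustment for that number.

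At DSE1 and PCL2 most or all Yap6 positions were held in common with other factors. DSE1 encodes a daughter-cell protein of cell separation, RSP5, on the other side of the same region, a ubiquitin ligase, and PCL2 a cyclin of the Pho85 kinase. DSE1 and RSP5 had the smallest p-value of Yap6 in the authors' deposited table, 1.15e-06, and PCL2 had 1.45e-04. In the count against the pool all 3 were lower, at 28 against 1648 for DSE1, 28 against 1682 for RSP5 and 27 against 5826 for PCL2. The direction at DSE1 turned on Fkh1, the forkhead factor of the cell cycle, which had 489 per 10000 there. Without Fkh1 in the pool the ratio at DSE1 was 1.36 in place of 0.561, and at RSP5 1.35 in place of 0.549. Neither passed without Skn7 or without Gcn4, with ratios of 0.583 to 0.611, nor did DSE1 without Rtg1, at 0.573. Of the 18 Yap6 positions at DSE1, 17 were also listed for Fkh1, and all 17 had at least 10 times more reads in another library. The Yap6 lines there had a median of 1 read, and 15 of the 28 had 1 read. The DSE1 excess against Phd1, Mga1 and Msn4 (ratio 2.95, interval 1.83 to 4.65) rests on the same lines. At PCL2 all 25 positions were in another library, 24 of them in Ste12 and 18 at least 10 times richer elsewhere, but the Yap6 lines had a median of 41 reads. All 5 positions at TUP1, which encodes the corepressor, were likewise in Fkh1 and at least 10 times richer in another library, with a median of 1 Yap6 read. Over the whole library, 26.9% of the Yap6 positions were listed for any other factor and 8.87% were at least 10 times richer elsewhere, and the overlap with 1 other library ranged from 0.495 to 5.65%. The DSE1 and PCL2 windows are full in the sharing libraries, with 1004 lines in Fkh1 and 1652 in Ste12. The whole-library share is therefore no like comparison for them. The source of the shared positions was not tested.

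**Figure D5:**
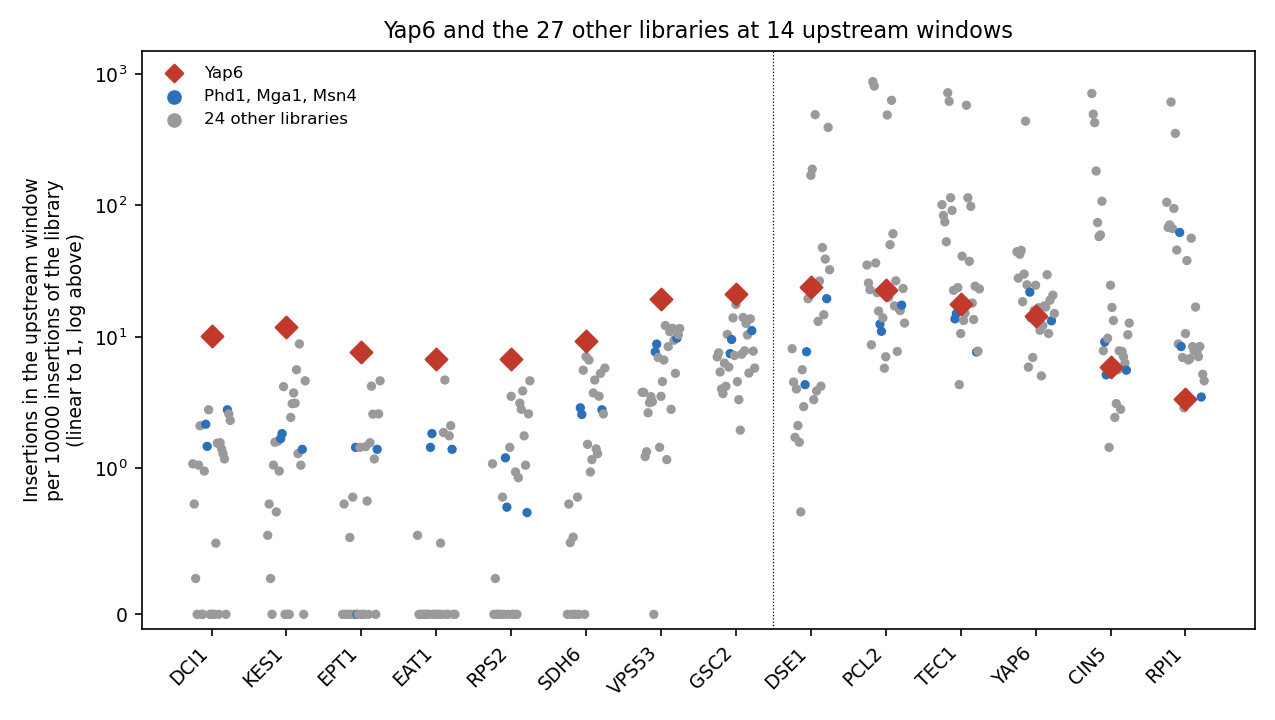
Insertions in the upstream window per 10000 insertions of the library (y axis, linear to 1 and log above) at 14 named genes; each dot is 1 library, Yap6 is the red diamond and Phd1, Mga1 and Msn4 are blue. Yap6 is highest at the 8 genes left of the dotted line and lies among or below the other libraries at the 6 on the right, with 23.7 at DSE1 against 489 in Fkh1.

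Of the 7 Yap family genes tested none had more Yap6 insertions and 2 had fewer (28.6%, beside 1.39% of all tested genes), CIN5 and YAP6 itself. With 1.59% of all tested genes having more, a count of 0 in so short a list does not set the family apart. The window of YAP6 held 17 insertions, 14.4 per 10000, against 5.04 to 436.9 elsewhere, with a median of 17.2 and the highest rate in Mit1. Its ratio to the pool was 0.387 (interval 0.225 to 0.622), and against the 3 most similar libraries it was 0.810 (interval 0.460 to 1.34). Without Mit1 in the pool the ratio was 0.654, with an adjusted p of 0.52 by Fisher's exact test. Of its 15 positions 9 were also in Mit1. YAP1, the regulator of the response to oxidants, held 9 insertions, a ratio of 3.06 (interval 1.36 to 6.06) with an adjusted p of 0.10 by Fisher's exact test. YAP5 held 7, CAD1 3, and YAP3 and YAP7 1 each. The ratio at YAP5 was 1.34 against the pool and 0.953 with totals outside called windows, both within its interval of 0.529 to 2.81.

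The other lists tied to Yap6 or its family are of 13 to 30 genes, where a count of 0 is likewise near the 1.59% of all tested genes with more and the 1.39% with fewer. None of the 27 tested genes of osmotic and salt stress had more, and HOG1, the kinase of the high-osmolarity pathway, had fewer, with 4 insertions against 840. HOG1 forms 1 locus with the wall protein gene CCW12, whose window overlaps its own. With the window ended at the nearest gene the HOG1 ratio was 1.18 and did not pass. The median ratio of this list was 0.917, beside 1.18 over all tested genes. None of the 30 oxidative and drug response genes passed in either direction, with a median of 1.22. Of 24 iron and metal genes only FRE1, an iron reductase gene, passed, with 9 insertions against 1761, a ratio of 0.169 that is 0.368 without Mfg1. Of 13 corepressor and glucose repressor genes TUP1 passed, with 5 against 1427, a ratio of 0.116. Without Fkh1 the TUP1 ratio was 0.560 and did not pass, with an adjusted p of 0.76 by Fisher's exact test. No gene passed among 19 hexose transporter and sensor genes, 26 of glycolysis and fermentation and 27 of nitrogen use, with median ratios of 0.634, 0.974 and 1.38. DDR2 was the 1 of 25 general stress genes to pass, with 2 insertions against 486, and it did not pass without Skn7, where the ratio was 0.288 in place of 0.136.

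Of 7 flocculin and adhesin genes tested FLO11 and FLO1 had fewer Yap6 insertions (28.6%, beside 1.39% of all tested genes). FLO11, the flocculin gene on which filamentous growth depends, held 1 Yap6 insertion against 844 in the pool, a ratio of 0.039 (interval 0.000989 to 0.218) that is 0.094 without Mit1. The FLO11 ratio was 0.550 with a 600 bp window and 0.687 with the window ended at the nearest gene, and it passed with neither. FLO1, another flocculin gene, held 0 against 512. The FLO1 ratio was 0 (interval 0 to 0.239), and with the floor of 3 insertions its rate was 5.17-fold lower. Without Mit1 the FLO1 difference did not pass, with an adjusted p of 0.22 by Fisher's exact test. At both genes the highest rate was in Mit1, at 354.2 and 254.6 per 10000, and the medians of the other libraries were 2.88 and 0.697. Of 26 cell wall protein genes 6 had fewer (23.1%, beside 1.39% of all tested genes), CWP2, SED1, SVS1, CWP1, CCW12 and PRY2, with 2 to 13 insertions each. The 2 CCW12 insertions are also counted for HOG1, which forms 1 locus with it. The SED1 ratio of 0.116 was 0.175 without Mfg1. The median ratio of the wall list was 0.821 against the pool and 1.06 against the 3 most similar libraries, beside 1.18 and 0.830 over all tested genes. Of 14 cyclin genes 3 had fewer (21.4%, beside 1.39% of all tested genes), PCL2, CLN1 and PCL1. Among the genes of the 28 factors 9 had fewer (32.1%, beside the same 1.39%) and 2 had more (7.14%, beside 1.59% of all tested genes). A count of 2 in so short a list does not set the factor genes apart. The ratio at MGA1 was 0.179, and 0.388 without Sfl1, where it did not pass. Those at MSN4, PHD1 and SOK2 were 0.089, 0.162 and 0.1803, and they were 0.139 without Mfg1 at MSN4, and 0.315 and 0.384 without Sok2 at PHD1 and SOK2. The 2 were MFG1, with 5 insertions against 15 (ratio 11.0), and SFL1, with 11 against 115 (ratio 3.16), and only MFG1 passed with totals outside called windows. CLN1, PCL1, PRY2, SVS1, FRE1, TEC1, PCL2 and MGA1 had ratios above 1 against Phd1, Mga1 and Msn4, none of which passed.

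The authors' deposited table called 15 genes at 13 loci for Yap6 (0.233% of 6444 genes). The other factors called between 4 and 164 genes, with a median of 49. Of the 15, 12 were among the 102 genes with more insertions and 3, DSE1, RSP5 and PCL2, among the 89 with fewer. Yap6 had the highest rate of 28 libraries at 10 of them. After DSE1 and RSP5 the smallest deposited p-values in the authors' deposited table were those of YEL068C (2.93e-05), NAG1 (4.06e-05) and DDI1 (8.32e-05). YEL068C, an uncharacterised gene, held 12 insertions against 94, a ratio of 4.21 (interval 2.10 to 7.71). NAG1 shares part of its window with GSC2 and held 14 of those insertions. DDI1, a ubiquitin receptor, held 7 insertions against 33. MBR1, linked to mitochondrial function, held 10, and EPL1, a subunit of the NuA4 histone acetyltransferase, held 6 on 6 positions that merge to 5. Of these genes EPL1 had the highest ratio, 10.4 (interval 3.41 to 27.1), and 7.41 after merging.

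The expression of the 102 genes with more Yap6 insertions is given as a description, without a test. Their median log2 change, starved over rich with 1 added to each RPKM, was -0.02, beside 0.01 over all tested genes. Their median RPKM was 52.0 in rich and 65.6 in starved medium, beside 43.9 and 48.7. Of the 102, 8 were at least 2 times higher in starved medium (7.84%), beside 10.3% of all tested genes. GSC2 had the largest change, from 24.4 to 170.2 RPKM, and SDH6 went from 47.3 to 197.7. DCI1 went from 11.0 to 13.4, KES1 from 199.99 to 159.3 and EPT1 from 71.2 to 55.2 RPKM. YAP6 itself had 29.7 RPKM in rich and 41.7 in starved medium. With 1 library per medium these differences have no replicate check, and RPKM values alone do not give the sequencing depth.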

How the data were processed

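The lines of each deposited insertion list name a chromosome and a position with an integer, read here as the count of supporting reads. The authors' deposited tables give a p-value per gene and factor, whose test is not stated, and RPKM in 2 media, normalised by the authors per the file headers. Aligner, filters and genome build are not given in the sources used here. Gene coordinates came from the expression table and are written from 1. There, 1210 genes share coordinates with another feature, including 21 of the 102 with more insertions. Of 6450 genes 6444 had coordinates, and the 6402 with an insertion in any library were tested. Strand came from the systematic name, and symbols from RefSeq R64 by locus tag for 5817 genes.

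Every line was counted as 1 insertion, repeated positions included (5.85% of Yap6 lines). Counts in the 1200 bp before each start codon and elsewhere were compared with Fisher's exact test, two-sided, adjusted over all 6402 genes (SciPy 1.17.1, pandas 2.3.3). Ratios carry conditional exact 95% intervals for counting error, with each line taken as a separate insertion. Where neighbouring lines are not separate insertions, the intervals are too narrow and the p-values too small. A count of 0 keeps a ratio of 0, and a floor of 3 insertions was used only for a separate fold at such genes. Insertions of 1 library come from 1 harvest and do not measure the variation between harvests. The function was tested on simulated data.

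The genes named are the 20 with the smallest p among those with more insertions, 5 among those with fewer, up to 6 passing genes of each of 15 lists, all Yap family genes, YAP6, CIN5, FLO11, DSE1 and RSP5, the 10 smallest deposited p-values, and the 10 largest ratios to the next library. RPA135, YFL041W-A, MFG1, SFL1, RPS13, RHO3 and POC4 were named after their values were seen. Members, lists and rules were chosen with earlier results of these data known.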

Additional observations from a re-analysis of the deposited data

How the results depend on the processing

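The number of genes with more Yap6 insertions than the pool was 102 and moved most with how close lines were counted and with the reference. It was 48 with a window of 600 bp, 58 with the window ended at the nearest gene, 34 with each position counted once, 44 with insertions of at least 2 reads and 40 at an adjusted p under 0.01. It was between 79 and 103 with positions richer elsewhere left out, shared positions left out, the mean of the 27 rates as reference, or at least 10 insertions required. The genes were not always the same. In that order, 80 of 81, 67 of 103, 68 of 79 and 94 of 96 were among the 102. Of 5 alternatives chosen after seeing the data, totals outside called windows gave 38, the 3 most similar libraries 3, low-read lines beside a richer line left out 6, merged lines 0 and genes without shared coordinates 81. The number with fewer was 89, and it was 44 with the 600 bp window, 2 against the 3 most similar libraries, 59 without low-read lines beside a richer one, 5 after merging and 60 to 116 otherwise. Leaving out each other library in turn gave 66 (without Mfg1) to 132 (without Phd1) genes with more and 78 to 94 with fewer. No paired analysis was possible because each factor has 1 library. The deposited table's 15 calls became 5 at a p-value at or under 0.0001 and 2 after adjustment.

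Directions turned in these cases, and the cause was not tested. Against the 3 most similar libraries the ratio was 1.36 at TEC1, 1.78 at PCL2, 2.95 at DSE1, 2.91 at RSP5, 1.95 at MGA1, 0.898 at YAP5, 1.47 at PRY2, 1.38 at FRE1, 1.69 at CLN1, 1.86 at PCL1 and 1.504 at SVS1. With the window ended at the nearest gene it was 0 at RPS26A, SOH1, RBH1, RNR2 and SCD5, 0.956 at MET13 and 1.18 at HOG1, as fewer insertions are then counted. It was 1.74 at RSP5 and 1.13 at FRE1 with 600 bp, 1.36 at DSE1 and 1.35 at RSP5 without Fkh1 (0.504 and 0.494 are the lowest values when another library is left out), 1.62 at DSE1 and 1.54 at RSP5 after merging, 0.953 at YAP5 with totals outside called windows, and 1.06 at YAP7 with shared positions left out. The expression result held under its 3 alternatives, with medians of -0.02. A window with 0 Yap6 insertions allows up to 3, so ratios under that floor cannot be told apart at this depth.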
